A study of Mus musculus with 32 samples.

Results

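The genes examined here make triglyceride and the glycerol backbone it is built on. The 10 members were taken by symbol from the deposited expression table, which lists 54532 genes, and are Gpam, Agpat2, Lpgat1, Lpin1, Dgat1, Dgat2, Mogat1, Pck1, Gpd1 and Gk. Each symbol occurred once in the table. RNA was sequenced from 4 tissues of wild-type C57/Bl6j mice, all of which ate a 60% fat diet for 12 weeks. One group then received auranofin at 1 mg per kg 3 times a week for 4 weeks, and the other received vehicle on the same schedule. Auranofin is a gold compound used against arthritis and an inhibitor of thioredoxin reductases. The tissues were liver, brown fat (BAT) and both of the large white depots, the inguinal one under the skin (iWAT) and the epididymal one in the abdomen (eWAT). Each tissue had 4 auranofin and 4 vehicle libraries, 32 in all, and no group on another diet was analysed here. The labels do not say that the libraries came from separate animals, so the p-values describe spread among libraries, which may be technical.

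Triglyceride is assembled by adding fatty acids one after another to glycerol 3-phosphate. Gpam starts the chain, Agpat2 adds the next acyl group, lipins such as Lpin1 remove the phosphate to give diacylglycerol, and Dgat1 and Dgat2 add the last acyl group, while Mogat1 can reach diacylglycerol from monoacylglycerol instead. White adipocytes have little glycerol kinase and rely on glucose, through Gpd1, or on glyceroneogenesis, for which Pck1 supplies the carbon, whereas liver can also recycle glycerol through Gk. In mice, loss of Agpat2 causes lipodystrophy, and Lpin1 is the gene mutated in the fatty liver dystrophy strain.

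Promoter windows are shown for Pck1, Gk and Gpam, the 3 members whose mean level in vehicle libraries was highest in liver. Liver and BAT were not called different for Pck1 and Gk, whose means in auranofin libraries were highest in BAT. The sequences are those of RefSeq on GRCm38.p6, from 250 bases before to 50 bases after the annotated start, and 7 members had 9 such windows. Capitals mark ACGTCA, the half-site of the cyclic AMP response element, read on either strand, and CACGTG, the E-box bound by helix-loop-helix factors such as the carbohydrate response factor.
Pck1, chr2:173152823-173153122, plus strand: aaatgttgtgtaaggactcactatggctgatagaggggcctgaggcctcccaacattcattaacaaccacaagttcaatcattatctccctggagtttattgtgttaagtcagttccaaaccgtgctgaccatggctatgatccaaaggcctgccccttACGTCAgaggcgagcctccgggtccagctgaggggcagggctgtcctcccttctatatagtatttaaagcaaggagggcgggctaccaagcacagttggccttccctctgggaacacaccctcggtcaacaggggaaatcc
Gk, chrX:85776770-85777069, minus strand: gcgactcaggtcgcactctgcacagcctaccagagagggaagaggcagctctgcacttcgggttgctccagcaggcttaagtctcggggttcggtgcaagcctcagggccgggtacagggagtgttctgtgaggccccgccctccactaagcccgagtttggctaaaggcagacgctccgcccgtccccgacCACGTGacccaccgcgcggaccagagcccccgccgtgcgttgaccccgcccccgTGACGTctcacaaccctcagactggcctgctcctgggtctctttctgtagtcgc
Gpam, chr19:55099428-55099727, minus strand: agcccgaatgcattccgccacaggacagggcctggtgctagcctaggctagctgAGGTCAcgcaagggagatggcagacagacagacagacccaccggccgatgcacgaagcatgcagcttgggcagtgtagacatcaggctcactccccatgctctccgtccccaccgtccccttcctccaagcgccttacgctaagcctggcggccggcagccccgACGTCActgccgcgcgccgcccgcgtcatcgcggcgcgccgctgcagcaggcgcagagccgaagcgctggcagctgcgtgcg
In the Gpam window capitals also mark AGGTCA, the half-site of nuclear receptors. ACGTCA began at position -91 in the Pck1 window, at -4 in the Gk window (as its reverse complement) and at -32 in this Gpam window, with the annotated start as 0. It was found in 3 of the 9 members' windows and in 7.51% of all 32851 windows of the table. CACGTG, at -58 in the Gk window, was in 7.15% of all windows, and AGGTCA, at -196 in the Gpam window and at -74 in the Lpin1 window, was in 16.3%. These matches are letters in a window, and no factor binding was measured. Another window of Gpam held no match and is not shown.

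Between 13606756 and 19205640 reads per library were assigned to genes. The libraries carried the markers of their tissues. The hepatocyte gene Alb lay between 40825 and 57473 FPKM in auranofin livers and between 39644 and 56133 in vehicle livers, and the brown adipocyte gene Ucp1 between 2279 and 4145 FPKM in auranofin BAT and between 1697 and 2931 in vehicle BAT. The adipocyte gene Adipoq was at 496 FPKM or above in every fat library, and in liver it was at 0 in all but 1 vehicle library. Several libraries stood apart from their group. Auranofin library 2 of iWAT had a summed level of 8 adipocyte markers of 10119 FPKM, against 5657, 5868 and 6115 in its group and 8364 to 8991 across vehicle libraries. It had the highest level of the 4 auranofin libraries for 7 of the 10 members and lay inside the vehicle range for 8. In eWAT, vehicle libraries 1 and 2 had adipocyte sums of 2175 and 2877 FPKM and sums of 8 macrophage markers of 3194 and 2965, against adipocyte sums of 4650.2 and 5025 and macrophage sums of 1282 and 1322 in vehicle libraries 3 and 4. These 2 libraries held the lowest pair of vehicle values for 9 of the 10 members. The sum of 6 skeletal muscle markers was 2190.2 and 898 FPKM in auranofin libraries 2 and 4 of BAT, against 2.67 and 3.07 in auranofin libraries 1 and 3 and 3.03 to 539 in vehicle BAT. In iWAT the muscle sum was 706 FPKM in auranofin library 4 and 1228 in vehicle library 4, and at most 30.2 in the other 6 libraries. In auranofin eWAT, library 2 had a sum of 8 hepatocyte markers of 908 FPKM, against 103, 178 and 275 in its group. In bulk tissue, fewer cells of a type and less RNA per cell cannot be told apart.

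Levels are given as FPKM, reads scaled to gene length and library size, as means ± SD over 4 libraries. Over all genes, vehicle libraries summed to 241571 to 277439 FPKM in eWAT and 340536 to 369437 in iWAT. These sums were 440511 to 469941 in vehicle BAT and 573272 to 622403 in vehicle liver. Tissue pairs given below as not called different are on the FPKM scale only, which does not make these sums equal. Log2 differences are on the log2(FPKM + 1) scale, which understates differences of low genes such as Gk and Mogat1. A difference was called when the Benjamini-Hochberg adjusted p of limma, over all genes tested, was under 0.05. Every member passed the filter on low values (a mean of 0.5 FPKM) in every tissue.

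**Figure D1:**
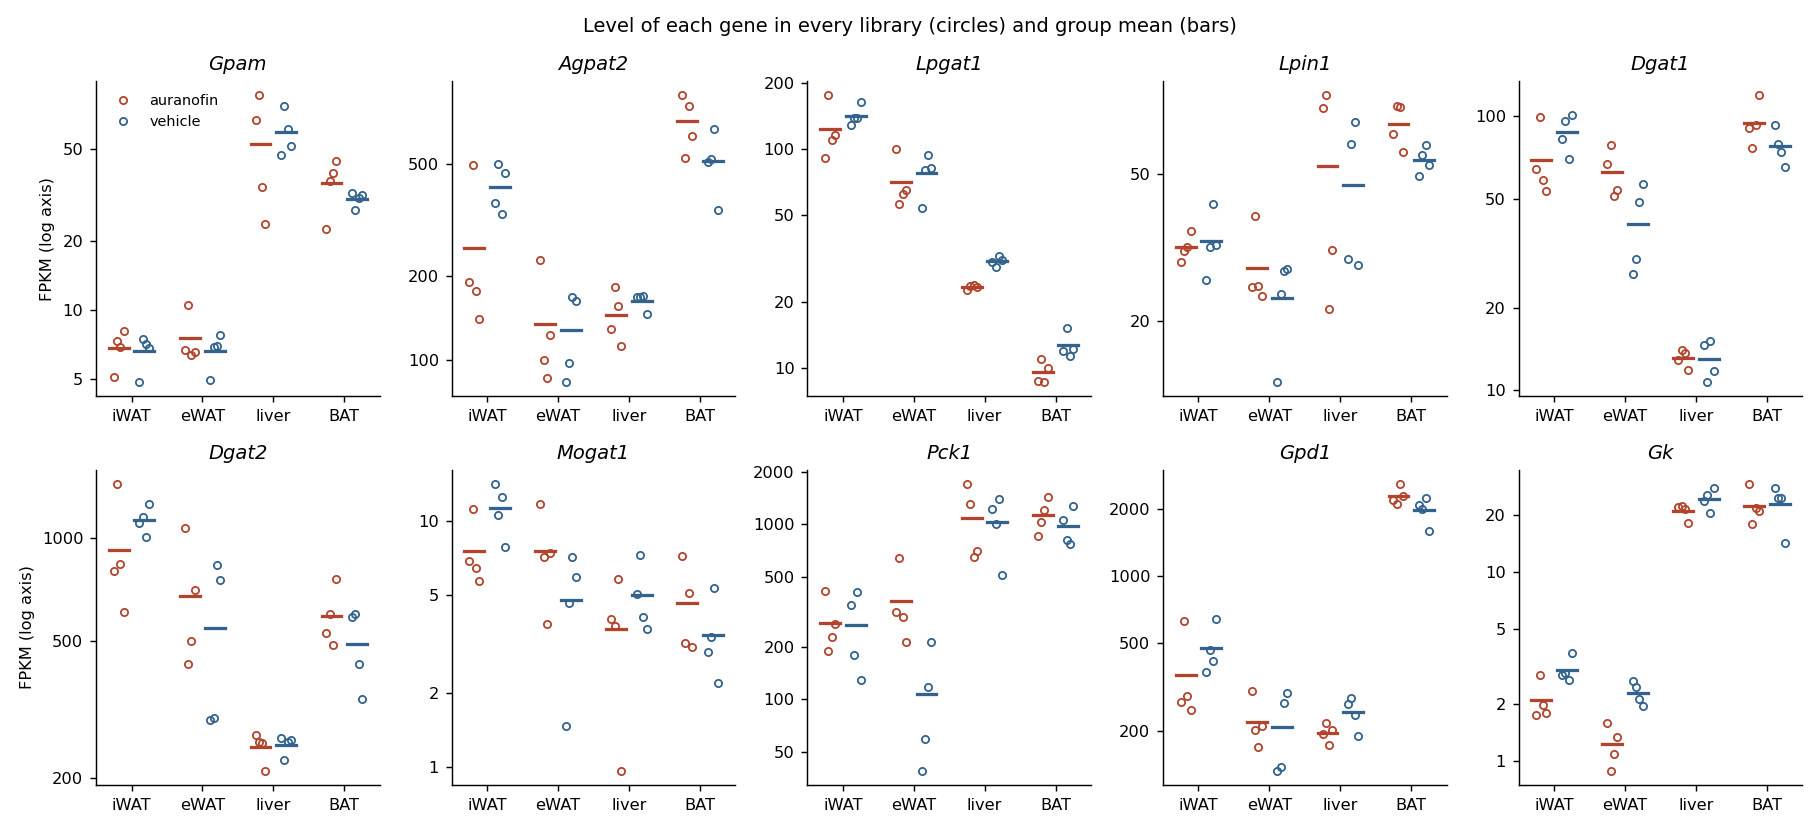
FPKM of the 10 genes in each of the 32 libraries (circles, log axis) with the mean of 4 libraries (bars), auranofin in red and vehicle in blue, by tissue. Gpam, Pck1 and Gk sit highest in liver and BAT and Lpgat1 in iWAT, while the auranofin and vehicle circles of a tissue mostly overlap.

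The genes that supply the glycerol backbone were all higher in brown than in white fat. Pck1 (ENSMUSG00000027513, mm10 chromosome 2, 173153048 to 173159273), phosphoenolpyruvate carboxykinase of the cytosol, stood at 1032 ± 381 FPKM in vehicle liver, 981 ± 232 in BAT, 266 ± 133 in iWAT and 107 ± 77.7 in eWAT, a 9.63-fold range. Liver and BAT were not called different, and BAT was above iWAT (log2 difference 2.003, SE 0.48, limma adjusted p = 0.00274). Its step from iWAT down to eWAT was called with all libraries (-1.44, SE 0.48, limma adjusted p = 0.0235) but not when any 1 of vehicle libraries 1 and 3 of iWAT or 1 and 2 of eWAT was left out, with differences between -1.06 and -1.26. The call was also lost with no filter on low values, on the TPM scale (-1.01), after quantile normalisation (-1.02) and with sample quality weights (-0.72).

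Gpd1 (ENSMUSG00000023019, chromosome 15, 99717515 to 99725005), which makes glycerol 3-phosphate from a glycolytic intermediate, was the most abundant member in BAT. Its vehicle libraries read 2079.7, 1996, 2258 and 1602 FPKM in BAT, against 370.5, 467, 414 and 642 in iWAT, with no overlap. BAT was higher than iWAT by 2.08 on the log2 scale (SE 0.26, limma adjusted p = 7.49e-06), and iWAT in turn was called above liver (244 ± 40.2 FPKM), which was not called different from eWAT (209 ± 85.7).

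Gk (ENSMUSG00000025059, chromosome X, 85701937 to 85776819), glycerol kinase, stood at 24.4 ± 3.11 FPKM in vehicle liver and 22.8 ± 5.97 in BAT, which were not called different. White fat had 3.04 ± 0.465 FPKM in iWAT and 2.29 ± 0.310 in eWAT, also not called different. BAT exceeded iWAT by 2.53 on the log2 scale (SE 0.17, limma adjusted p = 9.83e-09). Pck1 and Gk thus had the same order of mean levels, liver, BAT, iWAT and eWAT.

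Of the acyltransferases, Gpam (ENSMUSG00000024978, chromosome 19, 55069734 to 55099451), the mitochondrial enzyme of the committed step, was also a gene of liver and BAT. Its vehicle libraries read 46.9, 77.0, 61.3 and 51.4 FPKM in liver, 32.1, 27.1, 30.6 and 31.6 in BAT, 4.98, 6.90, 6.96 and 7.77 in eWAT and 4.88, 7.52, 7.15 and 6.87 in iWAT. Liver lay above BAT (0.92, SE 0.16, limma adjusted p = 0.000117), a call lost after quantile normalisation (0.33) and in auranofin libraries (0.41). BAT lay above eWAT (2.05, SE 0.16, limma adjusted p = 4.58e-08), while the white depots overlapped.

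Agpat2 (ENSMUSG00000026922, chromosome 2, 26593057 to 26604417) showed another order, with 512 ± 133 FPKM in vehicle BAT, 416 ± 79.7 in iWAT, 163 ± 11.2 in liver and 128 ± 43.5 in eWAT. BAT and iWAT were not called different, nor were liver and eWAT. iWAT lay above liver, by a liver minus iWAT difference of -1.33 (SE 0.24, limma adjusted p = 0.000115). In auranofin libraries this call was lost (-0.62). The 3′ end of Agpat2 overlaps Egfl7 on the opposite strand, which averaged 22.5 FPKM, and the libraries kept no strand.

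Lpgat1 (ENSMUSG00000026623, chromosome 1, 191717834 to 191784255), an acyltransferase of the endoplasmic reticulum named for lysophosphatidylglycerol, ran the other way. It had 142 ± 15.1 FPKM in vehicle iWAT and 77.3 ± 16.9 in eWAT, then 30.7 ± 1.46 in liver and last 12.6 ± 1.69 in BAT, an 11.3-fold range. Each step in this order was called, and BAT was lower than iWAT by a log2 difference of -3.39 (SE 0.15, limma adjusted p = 1.02e-10). It was the member with the lowest adjusted p between these tissues.

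Lpin1 (ENSMUSG00000020593, chromosome 12, 16535669 to 16610966), a phosphatidate phosphatase that also acts as a nuclear coregulator, varied least by tissue. Its vehicle means ran over a 2.37-fold range, with 54.6 ± 4.52 FPKM in BAT, 46.8 ± 21.0 in liver, 32.8 ± 6.49 in iWAT and 23.1 ± 6.51 in eWAT, and no neighbours in this order were called different. In liver it spread widely within both groups, with 75.4, 81.6, 21.6 and 31.1 FPKM in auranofin libraries and 29.4, 60.4, 69.0 and 28.3 in vehicle libraries.

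The last step was dominated by Dgat2 (ENSMUSG00000030747, chromosome 7, 99153658 to 99182719), which stood at 1131 ± 102 FPKM in vehicle iWAT, 545 ± 288 in eWAT, 489.7 ± 127 in BAT and 250.02 ± 16.3 in liver. iWAT lay above eWAT (eWAT minus iWAT -1.22, SE 0.30, limma adjusted p = 0.00425), though not after quantile normalisation (-0.75). eWAT and BAT were not called different, and liver lay below BAT (-0.93, SE 0.30, limma adjusted p = 0.0137). Dgat1 (ENSMUSG00000022555, chromosome 15, 76502015 to 76511953), a structurally unrelated enzyme with the same activity, had 87.2 ± 14.001 FPKM in iWAT, 77.9 ± 11.6 in BAT, 40.5 ± 14.5 in eWAT and 13.04 ± 2.14 in liver. iWAT and BAT were not called different, and liver was the lowest, below eWAT by -1.51 (SE 0.21, limma adjusted p = 1.06e-05).

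Mogat1 (ENSMUSG00000012187, chromosome 1, 78510991 to 78538173), a monoacylglycerol acyltransferase, had 11.3 ± 2.697 FPKM in vehicle iWAT, 5.02 ± 1.63 in liver, 4.79 ± 2.44 in eWAT and 3.46 ± 1.35 in BAT. iWAT lay above liver (liver minus iWAT -1.04, SE 0.32, limma adjusted p = 0.00933), and liver, eWAT and BAT followed with no called step between neighbours. Only 19 to 411 reads per library were assigned to it. It overlaps BC035947 on the opposite strand, to which up to 117 reads were assigned.

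Calls were then counted over tissue pairs. In vehicle libraries 7 of 10 members were called between eWAT and iWAT, against 46.2% of all genes tested. All 7 (Agpat2, Dgat1, Dgat2, Pck1, Gpd1, Lpgat1 and Mogat1) were lower in eWAT. The sum of 8 adipocyte markers ran from 2175 to 5025 FPKM in vehicle eWAT and from 8364 to 8991 in vehicle iWAT. That of 8 macrophage markers ran from 1282 to 3194 FPKM in vehicle eWAT and from 268 to 432 in vehicle iWAT. The part of these markers in the calls was not tested. In auranofin libraries 1 of the 10, Lpgat1, was called between the same depots, against 10.6% of all genes. Between BAT and iWAT 8 members were called against 50.1% of genes, with Gpam, Pck1, Gpd1, Gk and Lpin1 higher and Lpgat1, Dgat2 and Mogat1 lower in BAT. The Lpin1 call of this pair was lost without any 1 of 7 of the 8 libraries, with differences from 0.63 to 0.78. It was also lost with no filter on low values and on the TPM scale (0.37). In auranofin libraries the Dgat2 (-0.58) and Mogat1 (-0.62) calls of this pair were lost.

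Between BAT and eWAT 8 members were called against 53.0% of genes, and Lpgat1 alone of the 8 was lower in BAT. On the TPM scale the Dgat1 (0.18) and Lpin1 (0.47) calls of this pair were lost. Between liver and iWAT 9 were called against 69.5%, with Gpam, Pck1 and Gk higher and Agpat2, Dgat1, Dgat2, Gpd1, Lpgat1 and Mogat1 lower in liver. Between liver and eWAT 7 were called against 71.9%, with Gpam, Lpin1, Pck1 and Gk higher and Dgat1, Dgat2 and Lpgat1 lower in liver. The Lpin1 difference, 0.93 as called, was -0.25 on the TPM scale, and its call was lost there, after quantile normalisation (0.31) and in auranofin libraries (0.71). Between liver and BAT 6 were called against 63.1%, with Gpam and Lpgat1 higher and Agpat2, Dgat1, Dgat2 and Gpd1 lower in liver.

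FPKM corrects for gene length, so genes that share an enzyme step were set side by side. Gpam held 57.6% ± 4.8 of the summed FPKM of the 4 glycerol 3-phosphate acyltransferase genes in vehicle liver and 42.9% ± 1.7 in BAT, but 10.5% ± 2.2 in iWAT and 19.1% ± 2.8 in eWAT (SD, n = 4). In white fat the endoplasmic reticulum enzymes Gpat3, at 32.7 ± 4.54 FPKM in vehicle iWAT and 14.5 ± 5.99 in eWAT, and Gpat4, at 24.0 ± 3.43 and 14.5 ± 3.87, were above Gpam (6.61 ± 1.18 and 6.65 ± 1.19). Gpat2 stayed at 2.48 ± 0.73 FPKM in vehicle liver and under 0.2 in the fat depots.

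Agpat2 was the main gene of its step everywhere, with 88.5% ± 1.8 of the summed FPKM of 6 genes in vehicle iWAT, 81.0% ± 3.1 in BAT, 72.3% ± 5.7 in eWAT and 67.9% ± 1.2 in liver, where Agpat3 held 23.5% ± 1.0. Among the lipins Lpin1 held 87.8% ± 1.3 in vehicle iWAT, 81.1% ± 4.1 in eWAT and 89.3% ± 1.5 in BAT, but in liver it shared the step with Lpin2, at 45.7% ± 8.7 and 51.5% ± 8.1. Mogat1 shared its step with Mogat2, the intestinal enzyme, at 49.8% ± 6.3 and 50.2% ± 6.3 in vehicle iWAT, and held 98.1% ± 1.3 in liver. Pck1 held at least 96.5% ± 1.7 of the Pck1 and Pck2 sum in every group, and Gpd1 at least 92.2% ± 1.1 of the sum with Gpd1l and Gpd2.

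**Figure D2:**
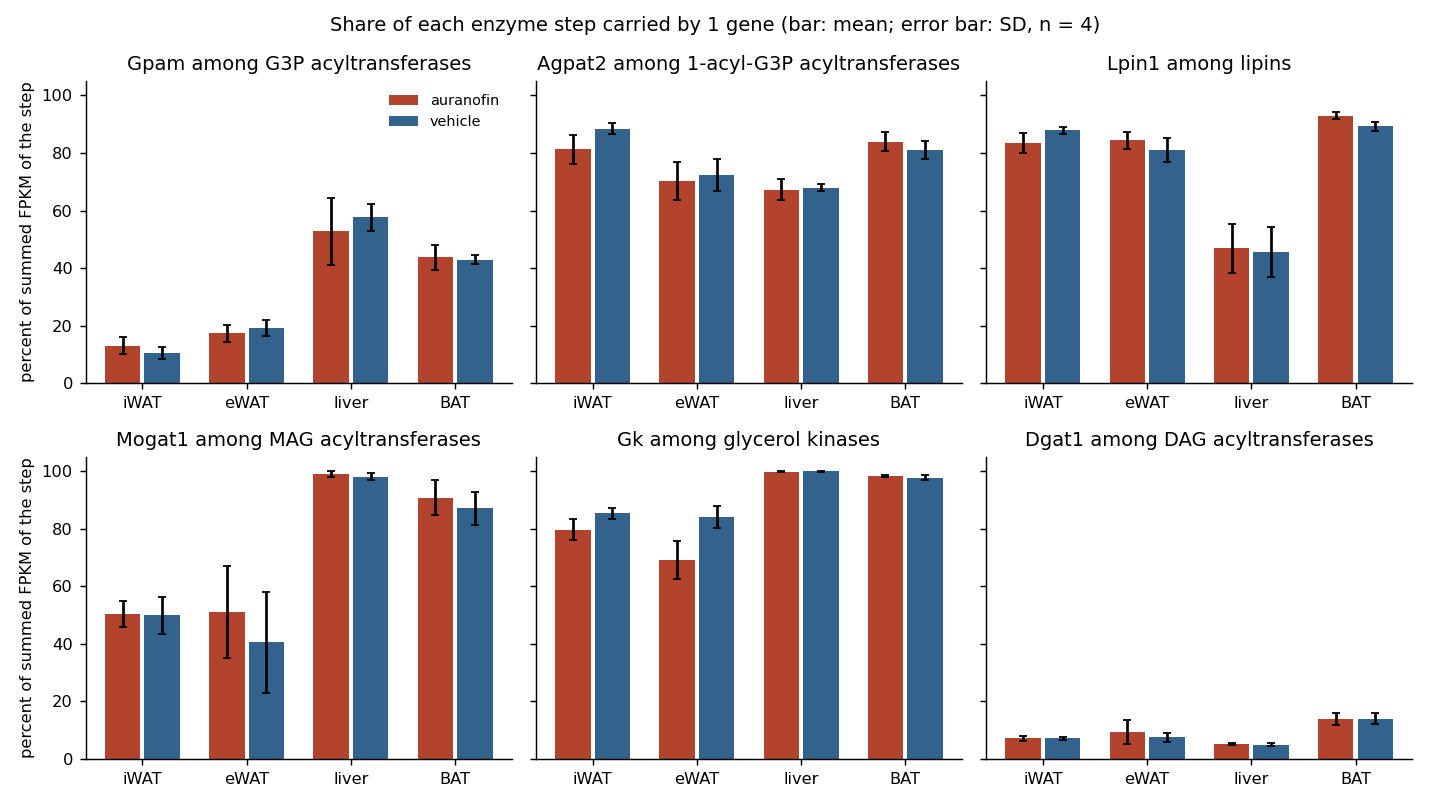
Percent of the summed FPKM of an enzyme step held by 1 gene, by tissue and treatment (bars, mean of 4 libraries; error bars, SD; G3P, glycerol 3-phosphate; MAG and DAG, mono- and diacylglycerol). Gpam holds 57.6% of its step in vehicle liver and 10.5% in vehicle iWAT, and Dgat1 holds at most 14.03% in any group.

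Auranofin was then compared with vehicle in each tissue. In no tissue did a member pass the test, in iWAT (0 of 13164 genes called, 0%), eWAT (0 of 13847, 0%), liver (0 of 13122, 0%) or BAT (3 of 13067, 0.0230%) by limma, and voom on the rebuilt reads called no member either. Without adjustment, limma p-values were under 0.05 for 2 members in BAT (1459 of all genes), 2 in liver (793), 3 in eWAT (1585) and 3 in iWAT (2895). The median log2 change of the members was 0.25 in BAT, where that of all genes was 0.022, and 0.21 in eWAT, where that of all genes was 0.0029. It was -0.36 in iWAT, against -0.017 for all genes, and -0.19 in liver, against -0.0080. The members' iWAT median was 0.028 after quantile normalisation, and their eWAT median was -0.17 with sample quality weights. Scaling each library to a common sum (TPM) moved the median of all genes to 0.23 in iWAT, -0.14 in eWAT, -0.097 in BAT and -0.018 in liver. On that scale the members' median was -0.083 in iWAT, 0.066 in eWAT, 0.10 in BAT and -0.21 in liver.

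**Figure D3:**
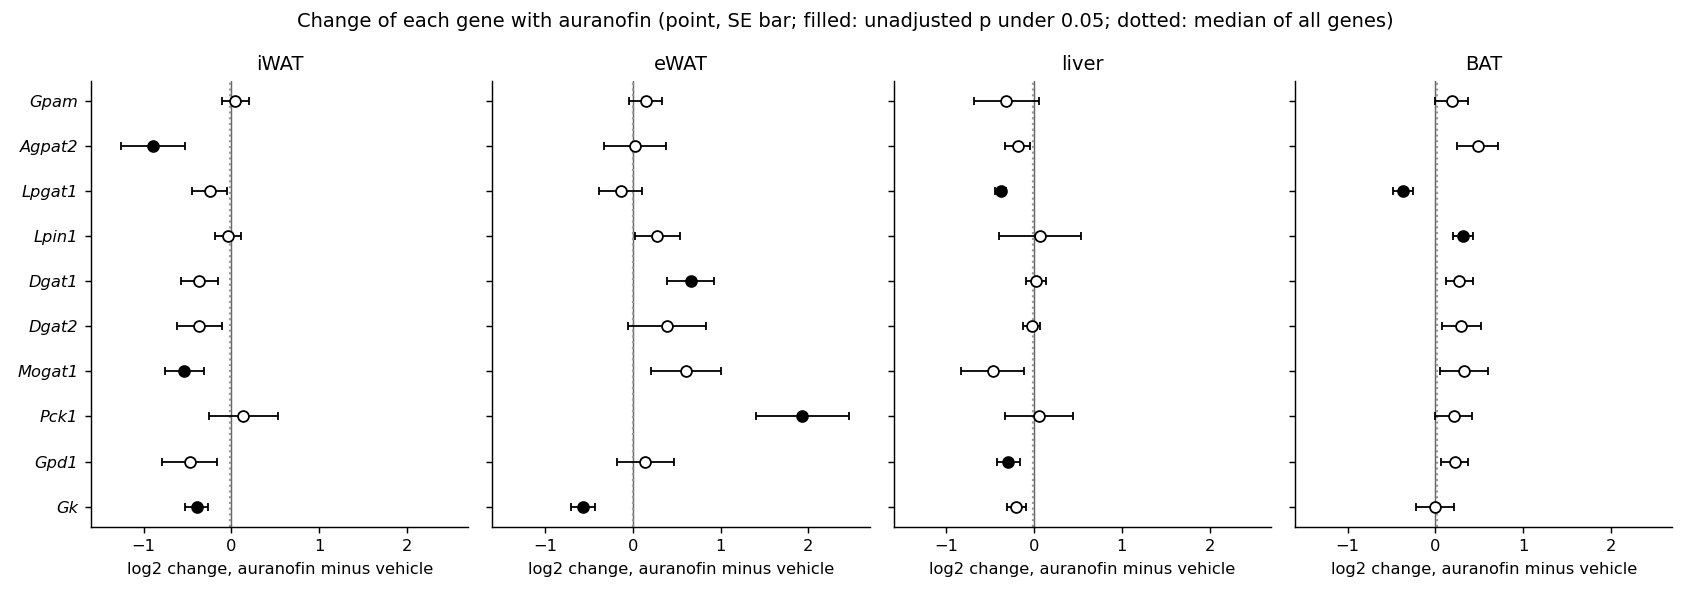
Log2 change of each gene with auranofin (auranofin minus vehicle, points, with SE bars) in the 4 tissues. Filled points have an unadjusted limma p under 0.05, none has an adjusted p under 0.05, and the dotted line is the median of all genes; Pck1 in eWAT, at 1.93, lies farthest from 0.

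Pck1 had the largest difference of any member, in eWAT. It read 317, 642, 298 and 212.04 FPKM in auranofin eWAT, against 39.3, 59.2, 118 and 212.49 in vehicle eWAT. The lowest auranofin library and the highest vehicle library met, and otherwise the auranofin libraries were higher (log2 change 1.93, SE 0.53, limma adjusted p = 0.429). Its rank by p was 75 of 13847 genes. In the other tissues its groups overlapped, with 275 ± 99.7 FPKM in auranofin iWAT and 266 ± 133 in vehicle iWAT. It had 1089 ± 503 FPKM in auranofin livers and 1032 ± 381 in vehicle livers, and 1129 ± 243 in auranofin BAT and 981 ± 232 in vehicle BAT.

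Gk was lower in all 4 auranofin libraries of eWAT, the opposite direction to Pck1. It read 1.58, 0.886, 1.09 and 1.34 FPKM in auranofin eWAT, against 2.64, 2.45, 2.11 and 1.95 in vehicle eWAT, on 137 to 490 reads per library. The groups did not overlap (log2 change -0.57, SE 0.14, limma adjusted p = 0.429). Gk was the 1 member of 10 without overlap in eWAT, against 6.95% of all genes tested. Its share of the glycerol kinase step, the rest being Gk5, was 69.3% ± 6.6 in auranofin eWAT and 84.1% ± 3.9 in vehicle eWAT (SD, n = 4). The share is built from the same Gk values and is no separate evidence. Gk5 was low, at 0.528 ± 0.087 FPKM in auranofin eWAT and 0.428 ± 0.088 in vehicle eWAT.

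When all 32 libraries were put in 1 fit, with a spread shared by the tissues, Pck1 and Gk both passed in eWAT with the same changes, as did 6.99% of all 14413 genes. The tissues differ in spread, for which reason the main fits took each tissue alone. Dgat1 had 66.9, 78.2, 50.9 and 53.6 FPKM in auranofin eWAT, against 26.5, 30.1, 48.7 and 56.6 in vehicle eWAT. Vehicle library 4 lay among the auranofin libraries and the other 3 vehicle libraries lay below all of them (log2 change 0.66, SE 0.27, limma adjusted p = 0.429). Dgat2 read 1071, 429.8, 500.5 and 707 FPKM in auranofin eWAT and 294, 299.8, 833 and 753 in vehicle eWAT, and vehicle libraries 1 and 2 were the lowest of the 8 for it too.

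The marker genes moved with these values. The summed level of 8 adipocyte markers ran from 4186 to 7429 FPKM in auranofin eWAT and from 2175 to 5025 in vehicle eWAT, with none of the 8 at 0, and 7 of the 8 had a change above 0. The sum of 8 macrophage markers ran from 618 to 1634 FPKM in auranofin eWAT and from 1282 to 3194 in vehicle eWAT, and all 8 had a change below 0. The sum of 6 fibroblast and stroma markers ran from 292 to 396 FPKM in auranofin eWAT and from 453 to 967 in vehicle eWAT, all 6 with a change below 0. Their part in the result was not tested. Without vehicle libraries 1 and 2, the log2 change of Pck1 was 1.09 and that of Gk -0.46. Relative to Adipoq in the same library, Pck1 stood at 0.108, 0.270, 0.217 and 0.121 in auranofin eWAT and at 0.0659, 0.0553, 0.0843 and 0.135 in vehicle eWAT, so that the ratios of the groups overlapped in 1 vehicle library. Auranofin library 2, the highest for Pck1, also had the highest sum of 8 hepatocyte markers in eWAT, 908 FPKM, against 65684 to 96734 in liver libraries, and all 8 hepatocyte markers had a change above 0 in eWAT. Without this library the log2 change of Pck1 was 1.62 and that of Gk -0.49.

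**Figure D4:**
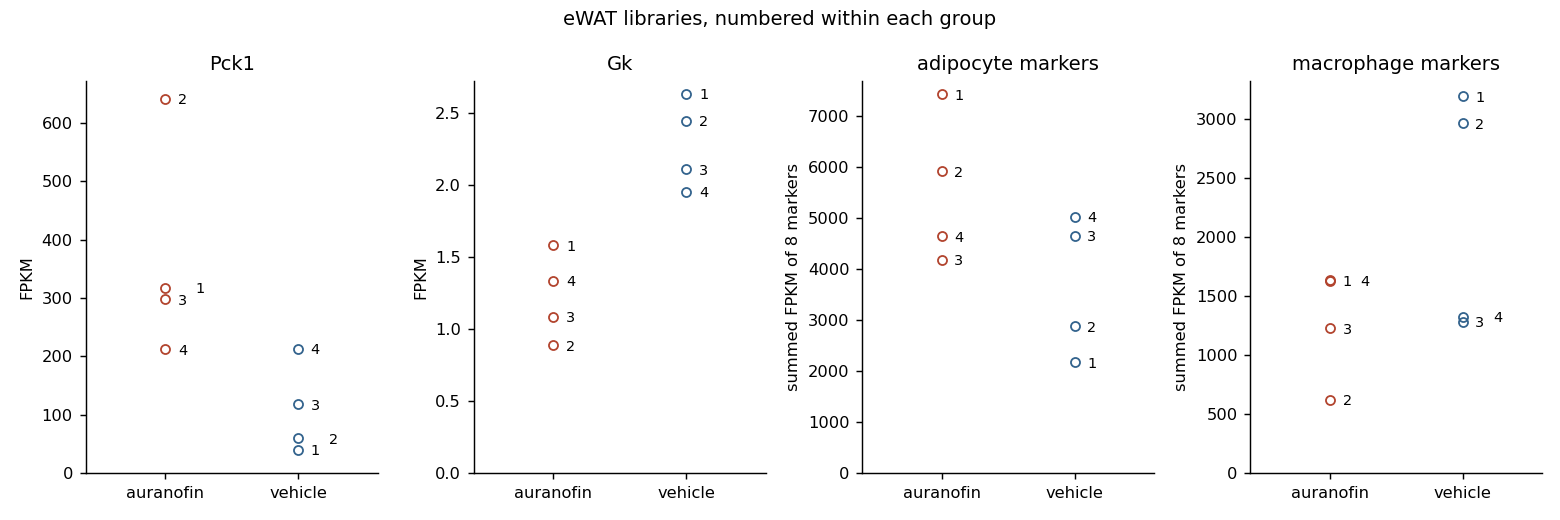
Pck1 and Gk (FPKM) and the summed FPKM of 8 adipocyte and 8 macrophage markers in each eWAT library, auranofin in red and vehicle in blue, with the library number beside each circle. Vehicle libraries 1 and 2 have the lowest Pck1, the highest Gk, the lowest adipocyte sums and the highest macrophage sums.

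In liver the smallest p of any member belonged to Lpgat1. It read 22.6, 23.7, 23.8 and 23.2 FPKM in auranofin livers, against 30.5, 28.9, 32.4 and 31.0 in vehicle livers. Every auranofin library lay below every vehicle library and the spread within each group was narrow (log2 change -0.38, SE 0.06, limma adjusted p = 0.509). It ranked 5 of 13122 genes by p and was the 1 member without overlap in liver, against 3.72% of all genes tested. Leaving out any 1 library kept its change between -0.41 and -0.36. The sum of 8 macrophage markers ran from 65.4 to 108 FPKM in auranofin livers and from 51.7 to 74.1 in vehicle livers, with none at 0 in every library of a group. The sum of 5 mesothelial markers ran from 3.04 to 6.89 FPKM in auranofin livers and from 1.55 to 1.9997 in vehicle livers, with no overlap, and all 3 markers tested had a change above 0 with an unadjusted limma p under 0.05. The part of these markers was not tested.

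Gpd1 had 195, 217, 174 and 204 FPKM in auranofin livers, against 265, 283, 237 and 191 in vehicle livers, where library 4 fell among the auranofin values (log2 change -0.30, SE 0.13, limma adjusted p = 0.790). The remaining 8 members had log2 changes in liver between -0.47 for Mogat1 and 0.06 for Lpin1. Gpam spread more widely in auranofin livers, with 66.8, 85.4, 34.0 and 23.7 FPKM, than in vehicle livers, with 46.9, 77.0, 61.3 and 51.4. The same pair of auranofin libraries, 1 and 2, was high for Lpin1 and Pck1, which read 1697, 1306, 649 and 703 FPKM in auranofin livers.

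Lpgat1 was also lower in auranofin BAT. It read 8.69, 10.9, 8.60 and 9.96 FPKM in auranofin BAT, against 11.8, 15.1, 11.3 and 12.2 in vehicle BAT. The groups did not overlap, though auranofin library 2 came close to the lowest vehicle library (log2 change -0.37, SE 0.11, limma adjusted p = 0.308). It was the 1 member without overlap in BAT, against 5.33% of all genes tested, and on the TPM scale its groups overlapped. Its log2 change was below 0 in all 4 tissues, with -0.25 in iWAT and -0.14 in eWAT, but in iWAT it was 0.035 on the TPM scale and 0.18 after quantile normalisation. The sum of 8 macrophage markers ran from 58.4 to 143 FPKM in auranofin BAT and from 119 to 244 in vehicle BAT, and its part was not tested.

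Of the other members in BAT, Lpin1 had 64.0, 76.3, 76.0 and 57.3 FPKM with auranofin, against 49.5, 56.3, 60.0 and 52.8 in vehicle libraries (log2 change 0.31, SE 0.12, limma adjusted p = 0.386). Agpat2 had the largest difference there, with 881, 525, 806 and 632 FPKM in auranofin BAT and 511, 523, 670.4 and 345 in vehicle BAT (log2 change 0.48, SE 0.23, limma adjusted p = 0.481). The groups of both genes overlapped. Gk had 22.5 ± 4.799 FPKM in auranofin BAT and 22.8 ± 5.97 in vehicle BAT, the smallest change of the 40 gene and tissue combinations. The sum of 7 brown adipocyte markers ran from 8475 to 14262 FPKM in auranofin BAT and from 6091 to 10569.8 in vehicle BAT. The sum of 6 fibroblast and stroma markers ran from 49.4 to 94.1 FPKM in auranofin BAT and from 93.6 to 158 in vehicle BAT, with 5 of the 6 below 0, and all 6 skeletal muscle markers had a change above 0. The part of these markers was not tested. Without auranofin library 2, which had the highest muscle sum, the log2 change was -0.43 for Lpgat1, 0.26 for Lpin1 and 0.62 for Agpat2, and without auranofin library 4 it was -0.39, 0.39 and 0.53 for the same genes.

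In iWAT the values turned on 1 library. Agpat2 read 190.4, 498, 177 and 139.8 FPKM in auranofin iWAT, against 364, 501, 334 and 465 in vehicle iWAT. Auranofin library 2 lay among the vehicle libraries and the other 3 auranofin libraries lay below all of them (log2 change -0.90, SE 0.37, limma adjusted p = 0.212). Gpd1 showed the same arrangement, with 271, 627, 289.6 and 248 FPKM in auranofin iWAT and 370.5, 467, 414 and 642 in vehicle iWAT.

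Gk read 1.74, 2.83, 1.97 and 1.799 FPKM in auranofin iWAT, against 2.83, 2.91, 2.69 and 3.72 in vehicle iWAT (log2 change -0.40, SE 0.13, limma adjusted p = 0.204). Mogat1 read 6.87, 11.2, 6.47 and 5.69 FPKM in auranofin iWAT, against 14.2, 10.6, 12.5 and 7.88 in vehicle iWAT (log2 change -0.53, SE 0.22, limma adjusted p = 0.212). In each, auranofin library 2 was the only one inside the vehicle range. With all libraries 0 of 10 members were without overlap in iWAT, against 5.18% of all genes tested.

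Without auranofin library 2, 7 of the 10 members were called in iWAT in either direction, against 36.4% of all 13248 genes, and all 7 were lower with auranofin. They were Agpat2 (log2 change -1.29), Gpd1 (-0.78), Mogat1 (-0.72), Dgat2 (-0.60), Dgat1 (-0.55), Gk (-0.50) and Lpgat1 (-0.43). The groups of the same 7 genes did not overlap without this library, which held for 43.5% of all genes. Library 2 was singled out with its place inside the vehicle range known for 8 of the 10 members. The lack of overlap without it is thus no separate evidence. Gpam (0.01), Lpin1 (-0.03) and Pck1 (0.30) were not called. The calls without library 2 are on the FPKM scale only. Over all genes, auranofin libraries 1, 3 and 4 summed to 259520 to 275614 FPKM and vehicle libraries to 340536 to 369437. The part of this gap in the calls was not tested. Sample quality weights, which keep the library but count it less, called 7 members and 46.3% of genes.

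**Figure D5:**
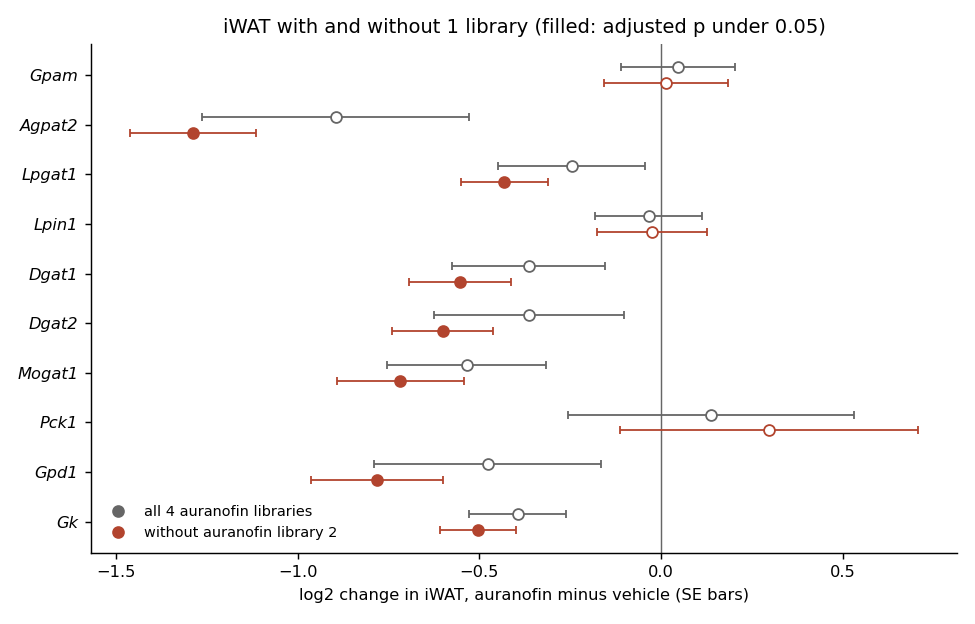
Log2 change of each gene in iWAT (auranofin minus vehicle, SE bars) with all 4 auranofin libraries (grey, 4 against 4) and without auranofin library 2 (red, 3 against 4). Filled points have a limma adjusted p under 0.05: none with all libraries, and 7 without library 2.

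Markers moved with that library too. The sum of 7 brown adipocyte markers was 164 FPKM in auranofin library 2 of iWAT, against 30.1, 38.1 and 63.9 in its group and 128 to 199.6 across vehicle libraries. The sum of 6 endothelial markers was 83.0 FPKM in it, against 169, 181 and 219 in its group and 90.2 to 123 across vehicle libraries. No adipocyte, brown adipocyte or endothelial marker was at 0 in all libraries of an iWAT group. The libraries also differed in make-up as a whole. The summed FPKM of all genes was 259520 to 275614 in auranofin libraries 1, 3 and 4, against 368676 in auranofin library 2 and 340536 to 369437 in vehicle libraries. Genes with reads numbered 21667 to 21924 in auranofin libraries 1, 3 and 4, against 19949 in library 2 and 19839 to 21368 in vehicle libraries. Reads of ribosomal RNA genes made up 0.379% to 0.393% in auranofin libraries 1, 3 and 4, against 0.220% in library 2 and 0.198% to 0.294% in vehicle libraries. The part of these markers and measures in the result was not tested.

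Interaction terms tested whether the change with auranofin was unequal in pairs of tissues. No member was called between eWAT and iWAT (0 of 13670 genes, 0%), eWAT and BAT (0 of 13842, 0%), BAT and iWAT (3 of 13372, 0.0224%) or liver and the mean of the fat depots (0 of 14413, 0%) by limma, where 3219, 809, 3093 and 870 genes had an unadjusted p under 0.05. The log2 change in eWAT exceeded that in iWAT by 1.796 for Pck1 (SE 0.71, limma adjusted p = 0.178), by 1.14 for Mogat1 (SE 0.49, limma adjusted p = 0.191) and by 1.02 for Dgat1 (SE 0.35, limma adjusted p = 0.177). The change in BAT exceeded that in iWAT by 1.38 for Agpat2 (SE 0.46, limma adjusted p = 0.127). The log2 change of Pck1 in eWAT exceeded that in BAT by 1.73 (SE 0.61, limma adjusted p = 0.777). Without auranofin library 2 of iWAT, Dgat1 was called between eWAT and iWAT, as were 14.8% of genes. In the same setting 5 members, among them Agpat2, Dgat1 and Mogat1, were called between BAT and iWAT, as were 27.4% of genes.

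Dgat2 outweighed Dgat1 in every tissue. The ratio of Dgat2 to Dgat1 was 13.2 ± 1.51 in auranofin iWAT and 13.1 ± 1.08 in vehicle iWAT, 11.1 ± 4.52 in auranofin eWAT and 12.9 ± 3.15 in vehicle eWAT. It was 18.8 ± 1.37 in auranofin livers and 19.5 ± 2.43 in vehicle livers, and 6.34 ± 1.11 in auranofin BAT and 6.23 ± 1.01 in vehicle BAT. Exact two-sided permutation tests of the log2 ratio gave p = 0.486 in eWAT, 0.771 in liver, 0.8 in BAT and 1 in iWAT (n = 4 each), where the smallest p possible was 0.0286, and all 4 were 1 after Benjamini-Hochberg adjustment.

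A further 54 genes of the pathway were examined in 5 lists: other acyltransferases and lipins, other glycerol phosphate supply, fatty acid uptake and activation, droplet assembly with the lipin phosphatase, and transcription factors. Of these, 47 were tested in BAT, 49 in liver and 48 in either white depot, and limma called 0 in each, while voom called 0 genes of any kind in iWAT, eWAT and liver. Unadjusted p-values under 0.05 were found for 1 gene with a higher and 7 with a lower level in auranofin iWAT, 8 of 48, where 2895 of all 13164 genes had one in either direction. The same counts were 4 and 1 for BAT (1459 of 13067 genes), 0 and 3 for liver (793 of 13122) and 4 and 0 for eWAT (1585 of 13847). The median log2 change of the listed genes was 0.18 in eWAT, 0.062 in BAT, -0.050 in liver and -0.12 in iWAT.

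In iWAT Bscl2, the seipin gene of droplet assembly, had 45.1 ± 19.97 FPKM in auranofin libraries and 72.2 ± 9.78 in vehicle libraries (log2 change -0.74, SE 0.25, limma adjusted p = 0.204). Mlxipl, which encodes the carbohydrate response factor ChREBP, had 13.9 ± 4.595 FPKM in auranofin iWAT and 8.05 ± 1.10 in vehicle iWAT (log2 change 0.67, SE 0.22, limma adjusted p = 0.204). In eWAT Aqp7, the glycerol channel of adipocytes, had 79.6 ± 17.5 FPKM in auranofin libraries and 52.1 ± 20.2 in vehicle libraries (log2 change 0.66, SE 0.29, limma adjusted p = 0.429). Pdk2, a kinase that restrains pyruvate dehydrogenase, had 24.4 ± 10.9 FPKM in auranofin eWAT and 12.2 ± 4.47 in vehicle eWAT (log2 change 0.92, SE 0.33, limma adjusted p = 0.429). In liver Agpat3 had 48.5 ± 3.58 FPKM in auranofin livers and 56.1 ± 1.21 in vehicle livers (log2 change -0.21, SE 0.07, limma adjusted p = 0.790). None of these passed the test.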

How the data were processed

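RNA-seq libraries of 4 tissues from auranofin- and vehicle-treated mice were grouped by the sample labels, 4 libraries per group, and none was left out of the main comparisons. The authors deposited 1 table of FPKM for 54532 genes, with gene lengths. Tools listed in the submitters' processing notes are DESeq2 1.20.0, featureCounts 1.5.0-p3, STAR 2.6.1d and CASAVA, with the build mm10 and no roles, and per the labels' protocols the kit was not stranded. FPKM times gene length rose in even steps, so reads could be rebuilt: 100% of values were whole to 0.1 read, with 13606756 to 19205640 reads in a library.

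Testing required a mean of at least 0.5 FPKM in the libraries of a fit. Genes were tested on log2(FPKM + 1) with limma 3.58.1 (intensity trend) in R 4.3.3, per tissue for auranofin against vehicle, over the 16 vehicle libraries for tissues, and as interactions between tissues. P-values were adjusted over all genes tested (Benjamini-Hochberg, threshold 0.05). The fits were tested on simulated data. The ratio of Dgat2 to Dgat1 was tested by exact permutation in scipy 1.17.1. Replicate numbers were not used to pair libraries.

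All 10 members are named; of the 5 pathway lists, up to 2 genes per list with the smallest p in a tissue may be named, and isozymes are named with their levels. The members, the lists of 54 pathway genes and the 11 marker lists were chosen with earlier results of these data known. Promoter windows came from a RefSeq table on GRCm38.p6, and Dgat1, Dgat2 and Gpd1 were not matched in it.

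Alternatives were a pseudocount of 0.1, filters at 0 or 1 FPKM, the TPM scale, quantile normalisation, no intensity trend, sample quality weights, voom on the rebuilt reads, a replicate block (statmod 1.5.0), subtracting the trend with gene length (lowess, span 0.3), 1 fit of all libraries, auranofin in place of vehicle libraries for tissue differences, and leaving out libraries. The overlap counts under other settings and the Pck1 to Adipoq ratio were added after the data were seen.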

Additional observations from a re-analysis of the deposited data

Results flagged for a closer look

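In 5 of 88 groups of 4 libraries, 1 library stood so far from the other 3 that its gap passed the 95% critical value of Dixon's test, which chance gives in about 1 in 20 groups. In auranofin iWAT, library 2 stood above the rest for Agpat2, at 498 FPKM, and for Gpd1, at 627 FPKM. In auranofin eWAT, library 2 stood above the rest for Gpam, at 10.5 FPKM, and for Lpin1, at 38.6 FPKM. In vehicle liver, library 4 stood below the rest for Agpat2, at 146 FPKM.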

How the results depend on the processing

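The number of members called for auranofin was 0 in liver and BAT under every alternative. It was 7 in iWAT with sample quality weights and from 0 to 7 when 1 library was left out, and 2 in eWAT in 1 fit of all libraries. Members called for an unequal auranofin change between tissues numbered 1 (eWAT and iWAT) and 4 (BAT and iWAT) with sample quality weights, and 0 to 1 and 0 to 5 when 1 library was left out. Members called between eWAT and iWAT numbered 1 in auranofin libraries. Members without overlap numbered 7 in iWAT without auranofin library 2 and 0 in BAT on the TPM scale.

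Some values turned sign, and the cause was not tested. In iWAT, Dgat2 was 0.072, Lpin1 0.23 and Lpgat1 0.18 after quantile normalisation, and Lpin1 0.25 and Lpgat1 0.035 on the TPM scale. In eWAT, Agpat2 was -0.13 on the TPM scale, -0.10 after quantile normalisation, -0.47 with sample quality weights, -0.075 with the gene length trend removed and -0.40 without vehicle libraries 1 and 2. Gpd1 was there -0.021, -0.0046 and -0.40 under the first 3 of these and -0.38 without the vehicle pair. With weights Gpam was -0.053, Dgat2 -0.25 and Lpin1 -0.084, and without the pair Dgat2 was -0.32 and Lpin1 -0.011. In liver Dgat2 was 0.012 after quantile normalisation and 0.0032 with weights, and in BAT Gk was 0.0011 with a pseudocount of 0.1, 0.0040 with voom and 0.022 with the length trend removed. Called tissue differences turned sign for Pck1 (eWAT minus iWAT), -1.44 in vehicle and 0.36 in auranofin libraries, and for Lpin1 (liver minus eWAT), -0.25 on the TPM scale.

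Leaving out 1 library at a time gave ranges that crossed 0 in iWAT for Gpam (-0.074 to 0.16), Lpin1 (-0.14 to 0.082) and Pck1 (-0.16 to 0.40), and in eWAT for Agpat2 (-0.26 to 0.21), Gpam (-0.0053 to 0.22) and Gpd1 (-0.043 to 0.34). In liver they did for Dgat1 (-0.065 to 0.088), Dgat2 (-0.075 to 0.047), Lpin1 (-0.22 to 0.41) and Pck1 (-0.25 to 0.26), and in BAT for Gk (-0.20 to 0.11). The log2 ratio of Dgat2 to Dgat1 differed between groups by -0.048 to 0.071 in iWAT and by -0.48 to 0.030 in eWAT. In liver its range was -0.10 to 0.014, and in BAT -0.082 to 0.12.

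Same-numbered auranofin and vehicle libraries deviated together only in part, with correlations from 0.07 to 0.40 in iWAT and from -0.22 to 0.19 in BAT. These come from different treatments, so they cannot show whether tissues share animals, which the labels do not say. Between tissues, 3 of 4 libraries correlated best with their own number for BAT with iWAT, in either treatment, and for vehicle liver with BAT. For the other tissue pairs within a treatment it was 0 to 2 of 4. The numbers were read as names, and tissue differences and interactions took the libraries as independent. With the replicate block 0 members were called in each tissue. Mogat1 in liver rested on as few as 19 reads, and small changes of it were not detectable at this depth.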
